A study of Mus musculus with 6 samples.

Results

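The 10 genes described here are direct targets of the tumour suppressor p53: Cdkn1a, Mdm2, Bax, Bbc3, Ccng1, Phlda3, Zmat3, Eda2r, Aen and Trp53inp1. They were listed by name as established p53 targets and found by their Ensembl identifiers, so they are 10 of the 56980 genes in the count table, and all 10 passed the filter on low counts that left 17901 genes to test. Messenger RNA was sequenced from 3 Keap1 knockout and 3 control tumours of small cell lung cancer. They grew in mouse lungs for about 4 months after viral delivery. Small cell lung cancer is usually a neuroendocrine carcinoma, but summed neuroendocrine markers were high only in control 3, as given below. The sample titles give both groups the same background, QKO, which the labels do not spell out. In the sample descriptions only the controls are labelled QKO, while the knockouts are labelled KP, which is not spelled out either. The labels also leave unstated the strain, sex and age of the mice, how Keap1 was inactivated, what the control virus carried, and whether each sample is its own animal. The p-values therefore cover only the spread between these samples, which may be technical. Such tumours in mice are commonly started by deleting Rb1 and Trp53, but whether Trp53 is deleted here is not stated, and p53 activity cannot be read from the genotype.

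p53 is a transcription factor that is kept scarce by the ubiquitin ligase MDM2 and accumulates when DNA is damaged or growth signals are abnormal. It binds a pair of short half-sites in or near its target genes and raises their transcription, which halts the cell cycle, repairs damage or kills the cell. Its relatives p63 and p73 recognise very similar sites, and many target genes also have a basal level that does not need p53. In human small cell lung cancer p53 is lost in nearly all tumours.

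Promoter sequence was available for 8 of the 10 genes, in 12 windows that run from 250 bases before to 50 bases after a start of transcription (RefSeq, build GRCm38.p6). The sequences that follow are shown because they hold a full p53 response element, and the capitals mark its pair of half-sites. The search was for the p53 half-site, a decamer that reads the same on both strands, as a pair with at most 13 bases between, with the fixed C and G of each half-site present and at most 2 mismatches in all. Of several matches in a window the closest pair was marked. Such an element was held by 3 of the 12 windows, 1 each of Cdkn1a, Ccng1 and Bax, against 4.09% of the 32851 windows of all genes.
Cdkn1a (chr17:29090729-29091028, plus strand): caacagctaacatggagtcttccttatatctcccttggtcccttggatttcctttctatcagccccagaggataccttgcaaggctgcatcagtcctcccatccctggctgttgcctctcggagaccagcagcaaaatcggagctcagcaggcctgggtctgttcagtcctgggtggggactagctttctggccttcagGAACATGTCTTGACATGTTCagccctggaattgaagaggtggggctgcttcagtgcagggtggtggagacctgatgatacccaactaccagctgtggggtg
Ccng1 (chr11:40755237-40755536, minus strand): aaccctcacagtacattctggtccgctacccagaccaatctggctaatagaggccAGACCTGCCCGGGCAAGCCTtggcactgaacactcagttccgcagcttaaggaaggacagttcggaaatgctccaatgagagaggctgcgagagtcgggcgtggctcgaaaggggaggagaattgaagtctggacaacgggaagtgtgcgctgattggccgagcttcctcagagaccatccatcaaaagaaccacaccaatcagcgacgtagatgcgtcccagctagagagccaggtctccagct
Bax (chr7:45466849-45467148, minus strand): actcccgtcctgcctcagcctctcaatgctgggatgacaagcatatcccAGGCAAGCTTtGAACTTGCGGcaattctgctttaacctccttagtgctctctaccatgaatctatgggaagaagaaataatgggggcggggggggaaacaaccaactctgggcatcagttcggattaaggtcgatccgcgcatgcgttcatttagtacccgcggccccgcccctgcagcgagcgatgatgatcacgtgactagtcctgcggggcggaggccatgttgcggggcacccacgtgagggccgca
The Cdkn1a element began 51 bases before the more upstream of its starts, had 1 mismatch and no bases between its half-sites. That of Ccng1 began 195 bases before the start, with 1 mismatch and no gap, and that of Bax 201 bases before it, with 2 mismatches and a gap of 1 base. Single exact half-sites were present in 6 of the 12 windows, from 5 of the 8 genes (Aen, Bax, Ccng1, Cdkn1a and Mdm2), against 8.36% of all windows. Some genes have several windows, and those of Aen, both with a half-site, overlap. A match describes the letters only, and these windows leave out introns and distant sites.

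The libraries held 18731515 to 23759892 counted reads, and cell type markers differed among them, the controls above all. Summed over each list, 6 basal and squamous markers (Krt5, Krt6a and others) took 1.10 to 61.9 CPM (read counts scaled to library totals) in knockouts and 6868, 8.92 and 2.39 CPM in controls 1 to 3, with Krt6a at no reads in 1 knockout. The 9 neuroendocrine markers took 54.5 to 214 CPM in knockouts and 114, 73.2 and 5242 CPM in controls 1 to 3, with the defining genes Insm1 and Chga each without a read in at least 1 knockout, against 622 CPM of Insm1 and 948 CPM of Chga in control 3. In controls 1 and 2 Insm1 had 17.97 and 1.39 CPM and Chga 7.92 and 0.495 CPM. Both were thus at or near 0 in the knockouts and far higher in control 3 than in any other library. Uchl1 had 47.9, 16.6 and 28.3 CPM in knockouts 1 to 3 and 14.6, 18.6 and 422 CPM in controls 1 to 3. Calca had 56.2 ± 52.3 CPM in knockouts and 692 ± 1165 CPM in controls (SD, n = 3 each), with 2037 CPM in control 3. All 7 tested markers of this list had negative fold changes. The 8 fibroblast and smooth muscle markers took 418 to 1153 CPM in knockouts and 516, 34336 and 5064 CPM in controls 1 to 3, with Pdgfra at 26.6 ± 3.39 CPM in knockouts and 139 ± 103 CPM in controls and Col1a2 at 175 ± 75.6 CPM in knockouts and 4408 ± 6654 CPM in controls (SD, n = 3 each). The 10 immune markers took 496 to 1095 CPM in knockouts and 164 to 1034 CPM in controls, and of the 9 tested 2 had positive and 7 negative fold changes. Lyz2 made up most of this sum in every library, so the sums mainly follow Lyz2 and say little of the other immune markers. The 2 with positive fold changes were Lyz2, with 632 ± 326 CPM in knockouts and 382 ± 263 CPM in controls, and Cd79a, with 3.35 ± 1.26 CPM in knockouts and 2.04 ± 0.917 CPM in controls. Among the 7 negative ones, Adgre1 had 6.51 ± 0.737 CPM in knockouts and 22.1 ± 15.5 CPM in controls. Ptprc, also negative, had 9.98 to 16.4 CPM in knockouts and 17.2 to 50.8 CPM in controls. The 6 endothelial markers took 118 to 202 CPM in knockouts and 90.8 to 333 CPM in controls, Kdr and Pecam1 among them with overlapping groups. The 8 markers of normal lung epithelium took 3183 to 7854 CPM in knockouts and 278 to 2628 CPM in controls, of which Scgb3a2, a club cell secretoglobin gene, rose (log2 fold change 4.25 ± 0.68, SE, edgeR adjusted p = 0.0391). That call ended in 5 of the 14 alternatives, among them without control 1 (adjusted p of 0.0618 by edgeR) and without knockout 1, 2 or 3 (0.138, 0.217 and 0.209). Leaving out a knockout left at most 2 calls among all genes. Of the 8 lung markers, 7 had positive fold changes and 1 a negative one. The latter was Foxj1, at 15.0 ± 3.41 CPM in knockouts and 24.4 ± 5.46 CPM in controls (SD, n = 3 each). The libraries highest in basal and in neuroendocrine markers were those highest in Phlda3 and in Eda2r. In bulk samples, fewer cells of a type and less RNA per cell cannot be told apart, and the part of these markers in the levels of p53 target genes was not tested.

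Between Keap1 knockout and control tumours, no p53 target gene passed the test: 0 of 10, where 4.31% of all tested genes did, 2.42% higher and 1.89% lower in knockouts (edgeR's quasi-likelihood test, adjusted p below 0.05 by Benjamini-Hochberg over 17901 genes). In simulated data this test called 0 of 67 genes with an absolute log2 fold change of 1. A missing call is thus no sign of equal levels. Eda2r, Phlda3 and Mdm2 had an unadjusted p below 0.05, as did 30.7% of all tested genes. The log2 fold change (knockout over control) was negative in 8 of the 10, against 53.9% of all genes, and had a median of -0.59 over the 10 and -0.08 over all genes. In 6 of the 10 the 3 knockout libraries lay wholly above or below the controls, lower in Cdkn1a, Ccng1, Mdm2, Phlda3 and Eda2r and higher in Bax, where 40.7% of all tested genes were apart in this way, 21.5% higher and 19.1% lower. The limma voom test also called 0 of 10, with 5.96% of all genes called (4.77% with a spread per genotype), whereas DESeq2 called 2, Eda2r and Phlda3, beside 26.6% of all genes. The authors' deposited table gives both of these an adjusted p below the same threshold as well (0.000466 for Eda2r, 0.0165 for Phlda3), as it does 17.8% of its genes, and its log2 fold changes have the same sign as those given here for all 10.

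**Figure D1:**
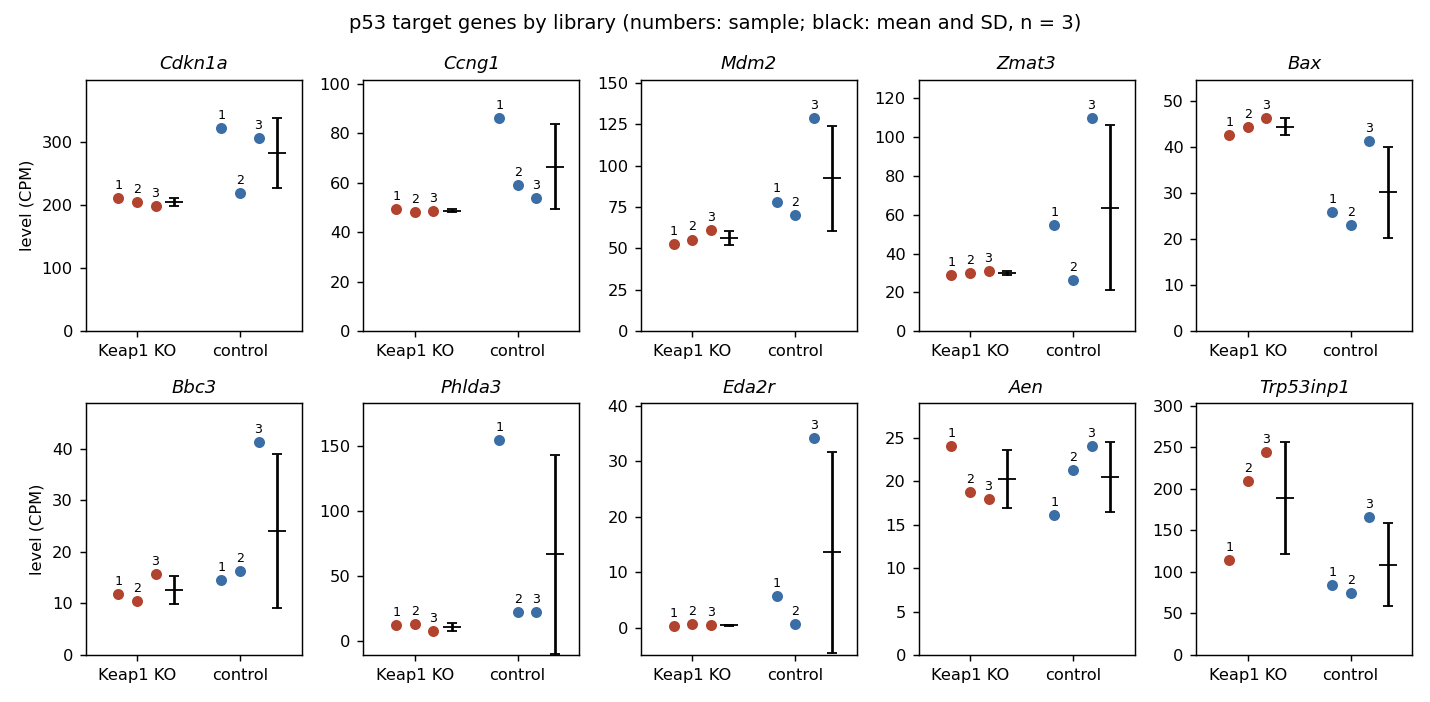
Level of each p53 target gene in CPM (reads scaled to library totals, vertical axis from 0 or below where the SD bar extends there) in the 3 Keap1 knockout and the 3 control libraries, with sample numbers above the points and the mean and SD in black. The knockout points of Cdkn1a, Ccng1, Mdm2, Zmat3 and Bax lie close together, while single control libraries stand far above the rest in Phlda3 (control 1) and in Eda2r, Zmat3 and Bbc3 (control 3).

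Each gene varied less among knockouts than among controls, by a narrow margin in Trp53inp1 (SD of log2 CPM 0.58 in knockouts and 0.62 in controls) and Aen (0.23 in knockouts and 0.30 in controls). The SD of log2 CPM was lower among the knockouts than among the controls for 10 of 10 genes, as it was for 83.5% of all tested genes, and its median over the 10 was 0.17 in knockouts and 0.54 in controls. Over all tested genes these medians were 0.22 in knockouts and 0.58 in controls. Of the 10 genes, 5 had their highest level in control 3, 3 in control 1 and 2 in a knockout, and none in control 2.

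Among the genes that halt the cell cycle, Cdkn1a encodes p21, the inhibitor of cyclin-dependent kinases through which p53 stops division in G1. Its level was 212, 204 and 198 CPM in knockouts 1 to 3 and 321, 219 and 307 CPM in controls 1 to 3. All knockouts lay below all controls, with control 2 only just above them. The means were 205 ± 6.94 CPM in knockouts and 282 ± 55.2 CPM in controls (SD, n = 3 each), for a fitted log2 fold change of -0.47 ± 0.20 (SE; edgeR adjusted p = 0.182). A gene on the opposite strand, AC167363.2, shares 273 exon bases with Cdkn1a. It had at most 69 reads in a library, against at least 4425 of Cdkn1a.

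Ccng1 encodes cyclin G1, which recruits a phosphatase to MDM2 and is among the earliest known p53 targets. It stood at 49.3, 48.4 and 48.7 CPM in knockouts 1 to 3 and at 86.2, 59.3 and 54.0 CPM in controls 1 to 3. The knockouts were nearly equal and lay below every control, and control 1 was the high one. Ccng1 had a log2 fold change of -0.45 ± 0.22 (SE; edgeR adjusted p = 0.225), and it was -0.21 without control 1. Of the genes whose promoter elements are printed above, Cdkn1a and Ccng1 had all knockouts below all controls, whereas Bax had all knockouts above all controls.

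Mdm2 encodes the ligase that marks p53 for degradation, so that p53 raises the transcription of its own inhibitor. Its level was 52.9, 55.4 and 61.1 CPM in knockouts 1 to 3 and 78.4, 70.0 and 129 CPM in controls 1 to 3. The groups did not overlap, and control 3 was 1.64 times as high as the next library. The means were 56.5 ± 4.22 CPM in knockouts and 92.4 ± 31.8 CPM in controls (SD, n = 3 each), with a fitted log2 fold change of -0.71 ± 0.27 (SE; edgeR adjusted p = 0.141). Without control 3 the log2 fold change was -0.39.

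Zmat3, also called Wig-1, encodes a zinc finger protein that binds RNA and alters splicing and RNA stability downstream of p53. It had 28.9, 29.9 and 31.0 CPM in knockouts 1 to 3 and 54.7, 26.4 and 110 CPM in controls 1 to 3. The knockouts lay within a narrow band, control 2 was below them, and control 3 was the high library, at 2.01 times control 1. The log2 fold change was -1.09 ± 0.50 (SE; edgeR adjusted p = 0.199), and it was -0.44 without control 3.

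Other genes of the list act in cell death. Bax encodes a pore-forming member of the BCL2 family that permeabilises the outer mitochondrial membrane. It had 42.6, 44.3 and 46.2 CPM in knockouts 1 to 3 and 25.9, 23.0 and 41.3 CPM in controls 1 to 3. Every knockout lay above every control, with control 3 close below the knockouts and controls 1 and 2 far below. The log2 fold change was 0.56 ± 0.27 (SE; edgeR adjusted p = 0.211). Without control 3 it was 0.86 and passed, at an adjusted p of 0.0253 by the same test, in a comparison in which 8.4% of all genes passed as higher in the knockout.

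Bbc3 encodes PUMA, a BH3-only protein that frees BAX from its inhibitors. Its level was 11.8, 10.4 and 15.7 CPM in knockouts 1 to 3 and 14.6, 16.4 and 41.4 CPM in controls 1 to 3. Knockout 3 lay between controls 1 and 2, so the groups overlapped, and control 3 was 2.53 times as high as the next library. Bbc3 had a log2 fold change of -0.93 ± 0.48 (SE; edgeR adjusted p = 0.239), and it was -0.29 without control 3. Bax and Bbc3, which act in the same pathway of cell death, thus had fold changes of opposite sign, neither past the threshold with all 6 samples.

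Aen, whose product is a nuclease that degrades DNA during apoptosis, was the gene with the smallest difference. It had 24.1, 18.8 and 18.0 CPM in knockouts 1 to 3 and 16.1, 21.3 and 24.1 CPM in controls 1 to 3. The ranges of the groups nearly coincided. The log2 fold change was -0.02 ± 0.27 (SE; edgeR adjusted p = 0.974), and its sign turned with some of the settings tried.

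Eda2r encodes a receptor of the tumour necrosis factor family that binds ectodysplasin A2, and it had the widest range of the 10 genes. Its reads numbered 7, 12 and 9 in knockouts 1 to 3 and 113, 13 and 688 in controls 1 to 3, which gave 0.326, 0.549 and 0.396 CPM in the knockouts and 5.74, 0.644 and 34.3 CPM in the controls. Control 2 was barely above the knockouts, whereas control 3 was 5.97 times as high as control 1 and 53.2 times as high as control 2. Eda2r had a log2 fold change of -4.98 ± 1.45 (SE; edgeR adjusted p = 0.0897), and it was -2.89 without control 3.

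Phlda3 encodes a small protein with a pleckstrin homology domain that competes with the kinase AKT for membrane lipids and so restrains survival signalling. It had 12.3, 12.9 and 7.38 CPM in knockouts 1 to 3 and 155, 22.5 and 22.3 CPM in controls 1 to 3. Controls 2 and 3 were nearly equal and above all knockouts, and control 1 was 6.89 times as high as the next library. The means were 10.9 ± 3.02 CPM in knockouts and 66.6 ± 76.6 CPM in controls (SD, n = 3 each). The fitted log2 fold change was -2.62 ± 0.87 (SE; edgeR adjusted p = 0.115), and it was -1.04 without control 1.

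Trp53inp1 encodes a stress protein that binds kinases which phosphorylate p53 and also takes part in autophagy. Its level was 114, 209 and 245 CPM in knockouts 1 to 3 and 84.8, 74.9 and 166 CPM in controls 1 to 3. Knockout 1 lay below control 3, so the groups overlapped, and it was the gene of the 10 whose knockouts varied most, by an SD of 0.58 in log2 CPM. Trp53inp1 had a log2 fold change of 0.80 ± 0.42 (SE; edgeR adjusted p = 0.249). Without control 3 it was 1.25, at an adjusted p of 0.0627.

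**Figure D2:**
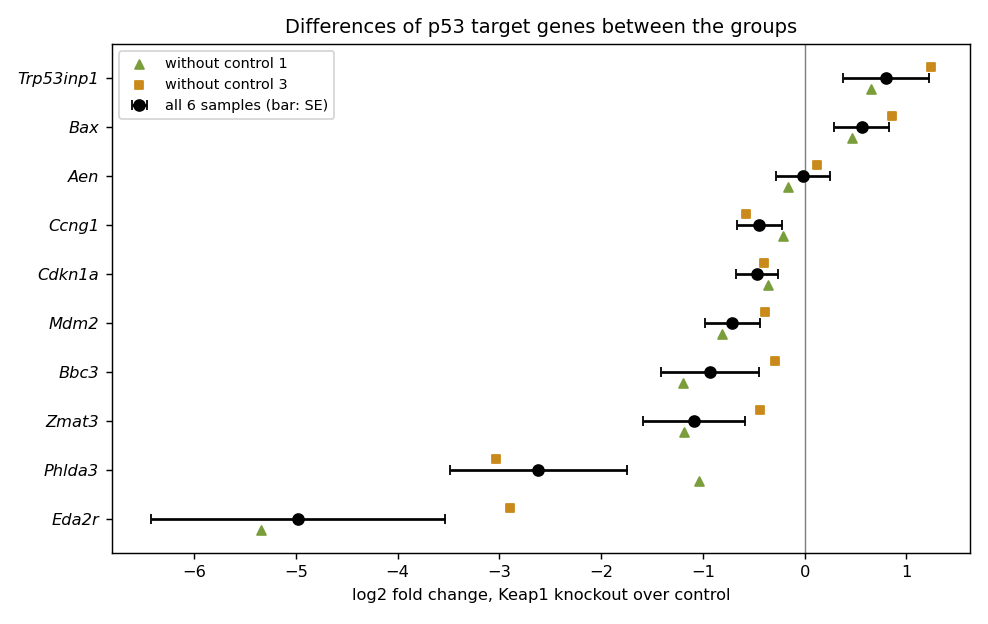
Log2 fold change of each p53 target gene, Keap1 knockout over control (horizontal axis), from all 6 samples with its SE (black) and from fits without control 1 (triangles) or without control 3 (squares). Without control 1 Phlda3 moved from -2.62 to -1.04, and without control 3 Eda2r moved from -4.98 to -2.89, while Bax and Trp53inp1 lay further above 0.

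The order of the genes by level per length differed between the groups, on a scale of CPM per kilobase of exon (lengths from GENCODE M21). In both groups Cdkn1a came first, at 57.6 ± 1.95 in knockouts and 79.5 ± 15.5 in controls, and Eda2r last, at 0.0719 ± 0.0194 in knockouts and 2.30 ± 3.08 in controls (SD, n = 3 each). On this scale Cdkn1a stood between the percentiles 94.6 and 95.3 of all tested genes in knockout libraries and between 96.4 and 98.2 in control libraries. In knockouts Trp53inp1 (29.2 ± 10.4) and Bax (28.2 ± 1.16) followed, then Ccng1 (13.9 ± 0.134), Mdm2 (11.1 ± 0.829), Phlda3 (6.96 ± 1.94), Bbc3 (5.95 ± 1.30), Aen (3.49 ± 0.570) and Zmat3 (2.62 ± 0.0950). The neighbours whose ranges overlapped there were Trp53inp1 with Bax and Phlda3 with Bbc3. In controls Phlda3 came second, at 42.7 ± 49.1, with a range from 14.3 to 99.4, and each gene's range overlapped that of the next, so that the control order does not hold beyond the spread.

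**Figure D3:**
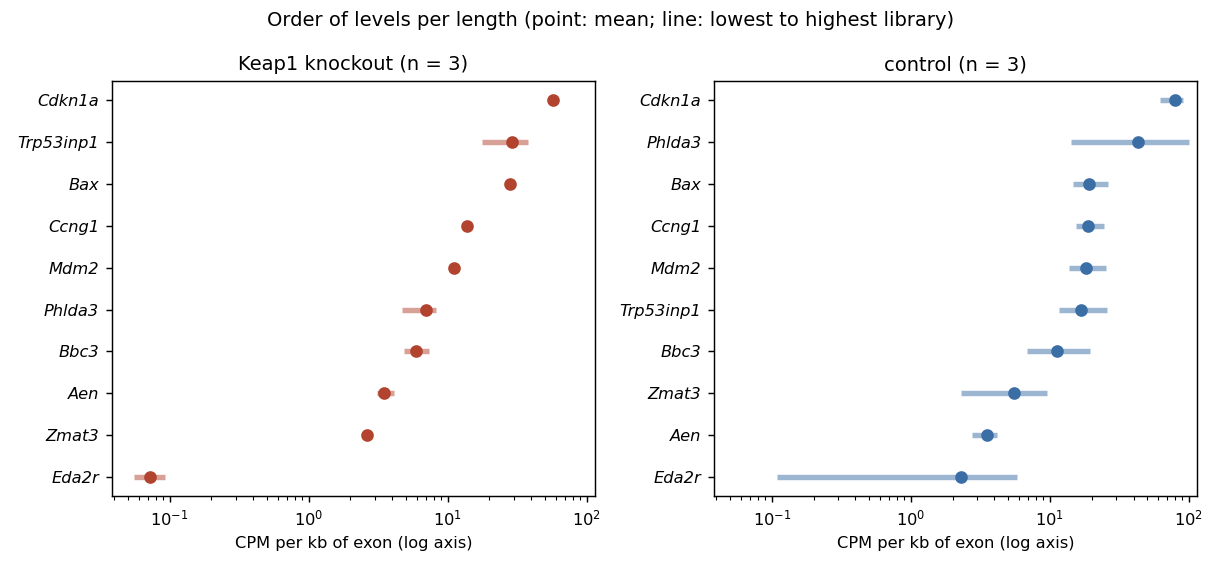
Level per length of the p53 target genes, in CPM per kilobase of exon on a log axis, in Keap1 knockout (left) and control libraries (right), with the mean as a point and the lowest to highest library as a line, each panel sorted by its own means. Knockout lines are short and mostly apart, whereas control lines overlap, with Eda2r spanning 0.109 to 5.82.

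Trp53 itself, and the genes that control p53, were read beside its targets. Trp53 was present in every library, at 31.9, 24.7 and 26.7 CPM in knockouts 1 to 3 and 13.4, 17.8 and 19.9 CPM in controls 1 to 3. All knockouts lay above all controls, with a log2 fold change of 0.71 ± 0.25 (SE; edgeR adjusted p = 0.130), and DESeq2 called it, at an adjusted p of 0.0410. A transcript that remains after deletion of part of a gene is still counted, so this level says nothing of the protein. Where 1.89% of all tested genes fell and 2.42% rose, 1 of the 20 genes of p53 control and the p53 family fell and none rose. That gene was Crebbp, a histone acetyltransferase that also acetylates p53, with 71.2 ± 4.87 CPM in knockouts and 124 ± 8.89 CPM in controls (SD, n = 3 each) and a fitted log2 fold change of -0.81 ± 0.15 (SE; edgeR adjusted p = 0.0465). Its call ended in 8 of the 14 alternatives, among them without control 1 or 2 (adjusted p of 0.0618 and 0.0681) and without knockout 1, 2 or 3 (0.195, 0.236 and 0.226). Fits without a knockout called at most 2 of all genes. Cdkn2a, whose alternative product ARF blocks MDM2, had 574 ± 69.6 CPM in knockouts and 244 ± 135 CPM in controls (SD, n = 3 each) and an adjusted p of 0.131 by the same test. Mdm4, the partner of MDM2, had a log2 fold change of -0.29 and an adjusted p of 0.322.

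The relatives of p53 were each concentrated in a single control library, the same libraries in which some targets stood out. These genes were singled out after their values were seen. Trp63, the basal epithelial member of the family, had 2.52, 0.137 and 0.0879 CPM in knockouts 1 to 3 and 231, 1.88 and 0.348 CPM in controls 1 to 3. Control 1, where it was high, was also the library with 155 CPM of Phlda3 and with 740 CPM of Perp, a p53 and p63 target that encodes a membrane protein of desmosomes. Trp73 had 0.606, 2.88 and 1.49 CPM in knockouts 1 to 3 and 7.71, 3.77 and 175 CPM in controls 1 to 3. Control 3, where it was high, was also the library with the most Eda2r, Zmat3, Bbc3 and Mdm2. Other p53 targets, from the wider list described below, were divided in control 3. Among others, Trp53i11, Pidd1, Sesn1, Plk2 and Ak1 had their highest levels there, at 375, 169, 72.1, 69.4 and 40.2 CPM. Fas, Gdf15, Tnfrsf10b and Sfn, among others, had their lowest levels in control 3, at 4.23, 5.83, 7.12 and 6.32 CPM. Sfn had 443 CPM in control 1, below its 476 to 741 CPM in knockouts. Controls 1 and 3 differ in much else, and the part of Trp63 and Trp73 in the target levels was not tested.

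**Figure D4:**
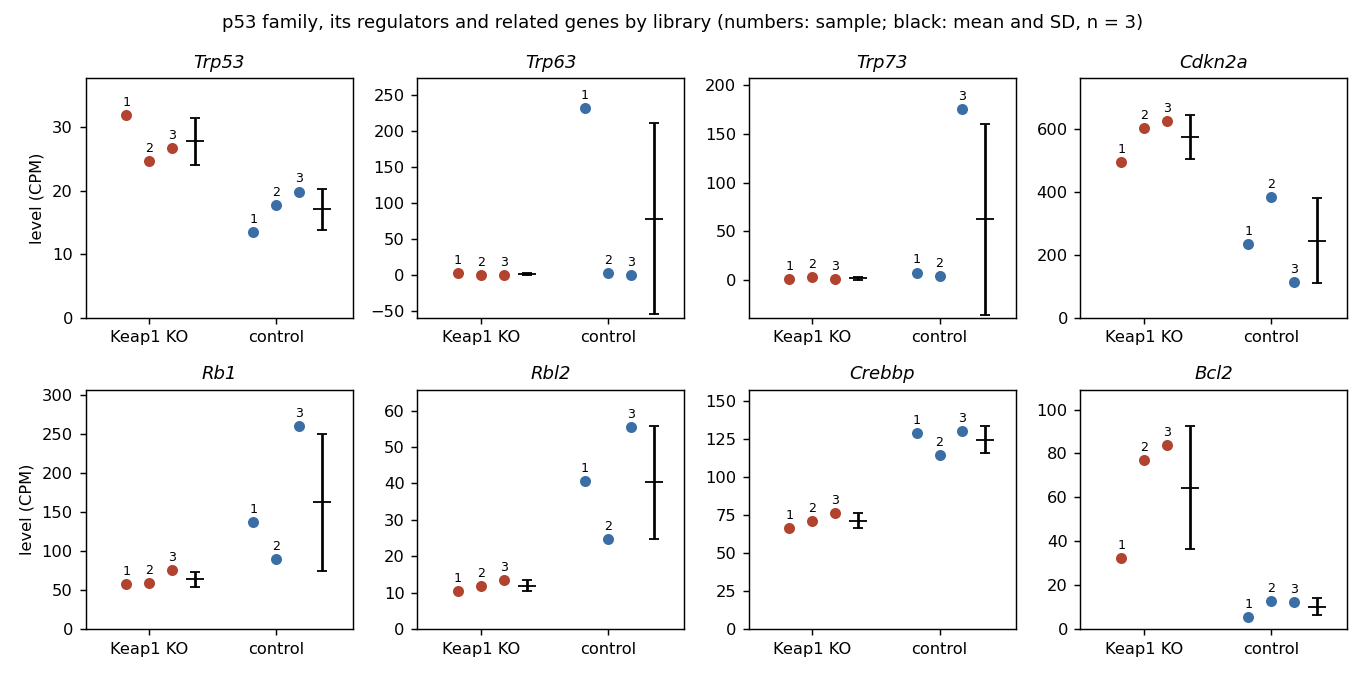
Level in CPM of Trp53, its relatives Trp63 and Trp73, and Cdkn2a, Rb1, Rbl2, Crebbp and Bcl2 in each Keap1 knockout and control library, with sample numbers above the points and the mean and SD in black. Trp63 is high in control 1 and Trp73 in control 3, while Trp53 lies between 24.7 and 31.9 CPM in knockouts and between 13.4 and 19.9 CPM in controls.

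Genes that are often deleted to start such tumours in mice were also measured. Whether Rb1 or Rbl2 is deleted here is not stated, and a transcript that remains after a partial deletion is still counted. Rbl2, which encodes the pocket protein p130, fell, with 11.9 ± 1.48 CPM in knockouts and 40.3 ± 15.4 CPM in controls (SD, n = 3 each), for a fitted log2 fold change of -1.76 ± 0.35 (SE; edgeR adjusted p = 0.0494). This call ended in 7 of the 14, among them without control 1 (0.0706) and without knockout 1, 2 or 3 (0.191, 0.236 and 0.226). Fits without a knockout called at most 2 of all genes. Rb1, the founding pocket protein gene, had 63.9 ± 9.66 CPM in knockouts and 162 ± 87.9 CPM in controls and an adjusted p of 0.0969 by the same test and 0.0195 by DESeq2. Its log2 fold change was -1.34 with all samples and -0.82 without control 3. Keap1 RNA had a log2 fold change of 0.18 ± 0.20 (SE; edgeR adjusted p = 0.564), which does not check the genotype, since a disrupted gene can still be transcribed.

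A wider list of 43 other p53 targets, from cycle arrest, cell death, DNA repair and metabolism, was divided in direction. Of the 42 that were tested, 1 rose and 1 fell, where 2.42% of all tested genes rose and 1.89% fell. Fold changes were positive in 22 and negative in 20 of the 42, and their median log2 fold change was 0.03, against -0.08 over all genes. Xpc, which encodes the sensor of nucleotide excision repair, rose, with 46.6, 57.8 and 60.4 CPM in knockouts 1 to 3 and 26.5, 20.9 and 29.0 CPM in controls 1 to 3, a log2 fold change of 1.11 ± 0.22 (SE; edgeR adjusted p = 0.0486). Kitl, the gene of the ligand of the receptor KIT, fell, with 26.3, 22.2 and 21.1 CPM in knockouts 1 to 3 and 60.5, 78.8 and 120 CPM in controls 1 to 3, a log2 fold change of -1.90 ± 0.30 (SE; edgeR adjusted p = 0.0383). In both genes the groups were apart, as in 22 of the 42, 15 of them higher and 7 lower, where 40.7% of all tested genes were apart, 21.5% higher and 19.1% lower. The call ended in 9 of the 14 alternatives for Xpc and in 5 for Kitl. Those of both ended without control 2 (adjusted p of 0.0724 for Xpc and 0.0633 for Kitl) and without any of the knockouts (0.143 to 0.236), and that of Xpc also without control 1 (0.0666). Fits without a knockout called at most 2 of all genes. The long noncoding RNA gene Trp53cor1 had at most 12 reads in a library and was not tested.

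Among partners of BAX and PUMA in the BCL2 family, 1 of 17 tested genes rose and none fell, beside 2.42% and 1.89% of all tested genes. Bcl2, the inhibitor of mitochondrial cell death after which the family is named, had 32.1, 77.0 and 83.8 CPM in knockouts 1 to 3 and 5.53, 12.8 and 12.2 CPM in controls 1 to 3. All knockouts lay above all controls, with a log2 fold change of 2.66 ± 0.51 (SE; edgeR adjusted p = 0.0478). Its call ended in 8 of the 14 alternatives, among them without control 1 or 2 (adjusted p of 0.0629 and 0.0732) and without knockout 1, 2 or 3 (0.128, 0.231 and 0.219). Fits without a knockout called at most 2 of all genes.

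Among CDK inhibitors, G1 cyclins and their kinases, the partners and relatives of p21, none of 15 passed the edgeR test, with 2 at an unadjusted p below 0.05, Cdkn2c and Cdkn2a, beside 30.7% of all tested genes. Cdkn2c, which encodes p18, had 113 ± 11.7 CPM in knockouts and 180 ± 28.1 CPM in controls (SD, n = 3 each) and an adjusted p of 0.0854 by that test and of 0.0101 by DESeq2. Of 22 cell cycle genes that p21 is known to repress through the DREAM complex, none passed the edgeR test. At an unadjusted p below 0.05 there were 6, all higher in knockouts, beside 30.7% of all tested genes in either direction. Over the 22, 15 fold changes were positive and 7 negative. Mki67 was among the negative ones, with 843 ± 60.7 CPM in knockouts and 1252 ± 395 CPM in controls (SD, n = 3 each). Cdc20, the activator of the anaphase ligase, had 330 ± 61.3 CPM in knockouts and 162 ± 21.6 CPM in controls and an adjusted p of 0.0551 by edgeR, 0.0460 by limma voom and 0.000675 by DESeq2. Birc5, which encodes survivin, had 217 ± 16.7 CPM in knockouts and 114 ± 34.4 CPM in controls and an adjusted p of 0.0876 by edgeR and 0.0232 by DESeq2. Without control 3 the edgeR adjusted p was 0.0399 for Cdc20 and 0.0304 for Birc5, where 17.2% of all genes passed.

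By likeness of level over the 6 libraries, the tested genes nearest to Cdkn1a were Pcgf3, Gm12258 and Tm2d2, with a root mean square distance of 0.05, 0.07 and 0.07 in log2 CPM after each gene was centred on its mean. Pcgf3, a Polycomb ring finger gene, had 65.4, 65.5 and 63.8 CPM in knockouts 1 to 3 and 109, 72.9 and 104 CPM in controls 1 to 3, the pattern of Cdkn1a at a lower level. Nearest to Mdm2 were Trim33, Rbm26 and Chd2, at distances of 0.04, 0.05 and 0.05. Trim33 had 78.6, 79.7 and 86.9 CPM in knockouts 1 to 3 and 120, 102 and 179 CPM in controls 1 to 3. None of these 6 genes is on the p53 lists used here. Those lists hold only 10, 42 and 20 of the 17901 tested genes, so nothing can be read from this.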

How the data were processed

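Messenger RNA of 3 Keap1 knockout and 3 control tumours was measured. The authors deposited whole-number read counts per Ensembl gene, not normalized. Alignment was with STAR to mm39, as the submitters' processing notes list. How reads were counted, against which annotation and whether by strand is not given in the sources used here. The authors' deposited comparison holds, per the file headers, log2 fold changes and their errors, a score (the Wald statistic), raw and adjusted p-values, and a mean normalized signal for each gene; the submitters' processing notes name DESeq2 for it. Symbols came from a table that paired 52073 of the 56980 identifiers.

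Genes were filtered with filterByExpr, scaled by TMM and tested by quasi-likelihood in edgeR 4.0.16 (R 4.3.3, robust fit, two-sided, genotype as the only term), with Benjamini-Hochberg adjustment over 17901 genes and a threshold of 0.05. The SE is the absolute log2 fold change over the square root of its F statistic. CPM are counts scaled to TMM-adjusted totals, and log2 CPM used a prior count of 2. Levels per kilobase used exon lengths of GENCODE M21, of an earlier build (GRCm38) than mm39, and are approximate. The fit was tested on simulated data. Library depth was 18731515 to 23759892 reads, so that Eda2r in knockouts rests on 7 to 12 reads a library. The 14 alternatives were scaling by RLE or upper quartile, leaving out the filter or asking for 1 CPM in 3 samples, DESeq2 1.42.0, voom in limma 3.58.1 with a shared spread or a spread per genotype, the sample number as a block, and leaving out each sample.

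The 10 genes, the other lists, the tests and the rule for named genes were chosen with earlier results of these data known. The rule named the 10 genes, genes often deleted in mouse models, up to 4 members past the threshold of each other list or else the 2 of smallest p, and up to 3 nearest profiles of Cdkn1a and Mdm2. Trp63, Trp73, Perp, Mdm4, Trp53cor1, Lyz2, Cd79a and Chga were named after their values were seen. So were Fas, Gdf15, Tnfrsf10b, Sfn, Trp53i11, Pidd1, Sesn1, Plk2, Ak1, Calca, Uchl1, Foxj1 and Mki67. Results for some genes that the rule names are not reported here.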

Additional observations from a re-analysis of the deposited data

How the results depend on the processing

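Of the 139 fold changes of the 10 p53 target genes under the 14 alternatives, 131 kept their direction and their side of the threshold, 3 passed it (Bax without control 3, and Phlda3 and Eda2r with DESeq2) and 5 reversed, all of Aen, at 0.025 without the filter and at 0.047, 0.083, 0.038 and 0.12 without knockout 2, knockout 3, control 2 and control 3. Over all single samples left out Aen ran from -0.16 to 0.12. Eda2r was not tested under the filter of 1 CPM in 3 samples. The count of p53 targets past the threshold was 0 in 12 alternatives, 2 with DESeq2 and 0 to 1 without single samples. That of the other p53 targets, 2 with all samples, was 1 with RLE scaling, 1 without the filter, 10 with DESeq2, 0 with the replicate block, and 0 to 8 without single samples. Over all genes, 771 passed, 465 without the filter, 4642 with DESeq2, 0 with the replicate block (4026 at an unadjusted p below 0.05) and 0 to 3209 without single samples (3209 without control 3, 735 without control 1, 269 without control 2, and 2, 0 and 0 without knockouts 1 to 3). The same-numbered samples did not vary together (correlations of deviations from group means of 0.018, 0.00012 and 0.051), so the block pairs samples that share only a number. Without single samples Kdr ran from -0.95 to 0.30 and Pecam1 from -0.67 to 0.27, both reversed without control 2, and Krt5 from -8.48 to 1.07, reversed without control 1. For Aen, whose value with all samples is near 0, the cause was not tested. Depth limits the values of Eda2r in knockouts, which rest on 7 to 12 reads a library.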
